A study of Mus musculus with 40 samples.

Results

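The genes described here are 8 transcription factors that set the identity of motor neurons, namely *Mnx1*, *Isl1*, *Isl2*, *Lhx3*, *Lhx4*, *Lhx1*, *Foxp1* and *Esrrg*. They were chosen by name, and all 8 were found by Ensembl identifier among the 55487 genes of the count table. Their RNA was followed in 40 libraries, 20 of ES-motor neurons and 20 of ES-astrocytes, each from about 200 sorted mouse cells. Both cell types were derived from embryonic stem cells of 1 mouse strain with an Hlxb9-GFP transgene, in which the promoter of Hb9, the protein that *Mnx1* encodes, drives eGFP. Differentiation was induced with retinoic acid and a smoothened agonist, which gives cells of brainstem and rostroventral spinal type. The ES-astrocytes were matured with forskolin, and ES-motor neurons sorted for eGFP were placed on them. The ES-astrocytes had 24 h of IL-1α with TNF-α, of C1Q with C5, of IL-1β with IL-6 or of TGF-β2, or were controls. After co-culture both cell types were sorted apart, with 4 biological replicates, lettered A to D, of each cell type and treatment, and a replicate stands for a separate vial of stem cells. All groups share the reporter line, the differentiation agents and the co-culture, and no library came from either cell type grown alone.

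LIM homeodomain proteins act in combinations in the ventral neural tube: *Isl1* and *Lhx3*, joined by the cofactor *Ldb1*, switch on motor neuron genes, and *Mnx1* then keeps interneuron programmes off. Later the motor neurons divide into columns, in which *Lhx3* and *Lhx4* persist in medial cells, *Lhx1* marks lateral cells whose axons enter the dorsal limb, and *Foxp1* works with Hox proteins to form the limb and preganglionic columns. *Esrrg*, an orphan nuclear receptor, is known from gamma motor neurons, which set the tension of muscle spindles.

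Depth differed widely between the libraries. The total count ran from 6557 to 19717324 in ES-motor neurons and from 1510823 to 16054290 in ES-astrocytes, with a median of 2459460.5 over the 40 libraries. Of the ES-motor neuron libraries, 9 had less than 20% of that median: all 4 with IL-1α and TNF-α, B and D with IL-1β and IL-6, and 1 each of the control (C), C1Q and C5 (A) and TGF-β2 (A) groups. Levels are given as CPM, the count per 1e6 counts of a total scaled by TMM, a method that evens out differences in RNA composition. In ES-astrocyte libraries 3 counts came to 0.23 to 2.04 CPM, and in ES-motor neuron libraries to 0.153 to 203 CPM. A level of 0 in a shallow library is therefore a limit and not absence, and since no molecular identifiers were named, such limits and the intervals given here cover counting error only. The sample sheet lists a plate index for the biological replicates, 1 for the control and IL-1α with TNF-α and 2 for all others. Plate here means that index, since the wells of all libraries carry the same prefix, 1C. The plate and the other 3 stimuli cannot be told apart in a comparison with the control. The second index primers also differed between the cell types within each plate index, so primer and cell type cannot be told apart.

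The sorted populations were first checked against markers. Of 10 neuron genes 4 were called higher in ES-motor neurons over the 5 treatments, led by the neurofilament genes *Nefl* (log2 fold change 3.71 ± 0.18, SE) and *Nefm* (3.43 ± 0.25), then *Stmn2* (1.71 ± 0.16) and *Map2* (1.08 ± 0.19), and none was lower. Their summed level ran from 3784 through a median of 8989 to 13236 CPM in ES-motor neurons and from 2107 through a median of 3262 to 4707 CPM in ES-astrocytes, with *Stmn2* as the most abundant gene, so ES-astrocyte libraries also held neuronal RNA. Of 12 astrocyte genes 7 could be tested, of which 6 were lower in ES-motor neurons, with the radial glial fatty acid binding protein gene *Fabp7* (−5.79 ± 0.29) as the most abundant gene, followed by the gap junction gene *Gja1* (−8.17 ± 0.84), *Cd44* (−6.08 ± 0.61) and the glutamate transporter gene *Slc1a3* (−6.80 ± 0.87), while *Sox9* was higher (1.75 ± 0.31). Their summed level ran from 0 through a median of 361 to 733 CPM in ES-motor neurons and from 632 through a median of 1851 to 3077 CPM in ES-astrocytes. The defining astrocyte markers *Aldh1l1* and *Aqp4* had 0 counts in all 40 libraries, and *Gfap* had 0 in all 20 ES-astrocyte libraries and 1 count in ES-motor neurons. The paper, by contrast, reports GFAP, AQP4 and GLT-1 protein by staining in ES-astrocyte cultures given forskolin or other differentiation factors. RNA counts do not measure these proteins, and the name ES-astrocytes is kept as the label of the sorted population.

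Further marker lists described what else the gates held. All 6 genes of dividing cells were lower in ES-motor neurons, with *Top2a* (−6.94 ± 0.40, the most abundant), *Ccnb1* (−7.42 ± 0.46), *Cenpe* (−8.14 ± 0.55) and *Mki67* (−8.29 ± 0.59), and their sum ran from 0 through a median of 4.39 to 18.3 CPM in ES-motor neurons against 536 through a median of 892 to 1238 CPM in ES-astrocytes. Of 6 fibroblast genes 3 were tested and lower in ES-motor neurons, *Dcn* (−9.49 ± 0.57, the most abundant), *Col1a1*, whose 3 counts against 3883 gave a ratio of 0.00140 (95% interval 2.88e-04 to 0.00408), and *Col1a2*, at least 319-fold lower, with sums from 0 through a median of 0 to 5.92 CPM against 37.0 through a median of 203 to 1122 CPM. Microglia genes were near 0, with *Aif1*, *P2ry12* and *Ptprc* at 0 in all libraries and sums from 0 through a median of 3.38 to 21.9 CPM against 0 through a median of 0.416 to 11.9 CPM, and the 1 gene of 6 that could be tested, *Csf1r*, also the most abundant, was not called (1.53 ± 0.91). Of the oligodendrocyte lineage 2 of 6 genes were tested and not called, among them *Mbp* (1.84 ± 1.00, the most abundant), at sums from 0 through a median of 5.77 to 30.8 CPM against 0 through a median of 2.01 to 45.7 CPM. None of 6 pluripotency genes had enough counts for a test, *Pou5f1* and *Zfp42* were at 0 throughout, *Dppa3* was the most abundant, and the sums ran from 0 through a median of 0 to 6.71 CPM against 0 through a median of 0.163 to 1.35 CPM. The part of these cell types in the differences between the sorted populations was not tested.

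A pair of libraries in each cell type stood apart in several genes at once. The ES-motor neuron libraries A with IL-1α and TNF-α and A with IL-1β and IL-6 held the most *Mnx1*, 4015 and 2925 CPM, and summed cholinergic genes at 1072 and 846 CPM. Their summed motor column factors were 385 and 712 CPM, their interneuron factors 47.4 and 106 CPM and their astrocyte markers 41.5 and 64.8 CPM. The ES-astrocyte libraries control A and C1Q and C5 D held the most *Mnx1*, 21.3 and 19.8 CPM, and the most *Lhx3*, beside the least *Lhx1*, 7.18 and 12.8 CPM. In them the astrocyte markers summed to 632 and 821 CPM and the interneuron factors to 126 and 587 CPM. Several values of single members change when 1 of these libraries is left out.

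*Mnx1* (ENSMUSG00000001566, chr5:29473034-29478470, minus strand, build GRCm38), whose product Hb9 holds young motor neurons to their fate, ran from 319.9 through a median of 663 to 4015 CPM in the 20 ES-motor neuron libraries and from 0 through 1.36 to 21.3 CPM in the 20 ES-astrocyte libraries, 14 of which had any count. All 20 ES-motor neuron libraries lay above every ES-astrocyte library. Over the 5 treatments the log2 fold change was 8.70 ± 0.72 (SE) with an adjusted p of 1.26e-12 by edgeR, which here stands for its quasi-likelihood test, adjusted over all genes tested after Benjamini and Hochberg. Without ES-astrocyte control A, which had the highest ES-astrocyte level, it was 9.35. The sort gate was eGFP driven by the promoter of this gene, so this difference follows the gate. In such bulk libraries, fewer cells of a type and less RNA per cell cannot be told apart.

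By treatment, the ES-motor neuron libraries A to D held 1650.2, 1768, 716 and 539.6 CPM of *Mnx1* as controls, 4015, 948, 1056 and 355 CPM with IL-1α and TNF-α, and 676, 384, 319.9 and 476 CPM with C1Q and C5. With IL-1β and IL-6 they held 2925, 474, 817 and 408 CPM and with TGF-β2 650.5, 1799, 540.3 and 579 CPM. The means came in the order IL-1α and TNF-α (1594 ± 1643 CPM, SD, n = 4), control (1168 ± 630.3), IL-1β and IL-6 (1156 ± 1193), TGF-β2 (892 ± 606) and C1Q and C5 (464 ± 155), and each neighbouring pair of groups overlapped. Single libraries set this order, since the mean was 787 CPM with IL-1α and TNF-α and 566 CPM with IL-1β and IL-6 without the libraries A that stood apart, and 590.0 CPM with TGF-β2 without library B. In ES-astrocytes the libraries A to D held 21.3, 2.99, 0 and 0.171 CPM as controls, 2.70, 5.73, 4.77 and 19.8 CPM with C1Q and C5 and 2.66, 1.27, 1.45 and 2.34 CPM with TGF-β2. With IL-1α and TNF-α they held 0.153, 0, 0 and 0 CPM, from 2 counts in all, and with IL-1β and IL-6 0.227, 0, 0 and 2.95 CPM, from 7 counts. Traces of *Mnx1* RNA were thus seen in 3 of 4 control libraries, in all 4 with C1Q and C5 and with TGF-β2, in 1 with IL-1α and TNF-α and in 2 with IL-1β and IL-6, and no stimulus was separate from the control (exact permutation p at least 0.143).

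**Figure D1:**
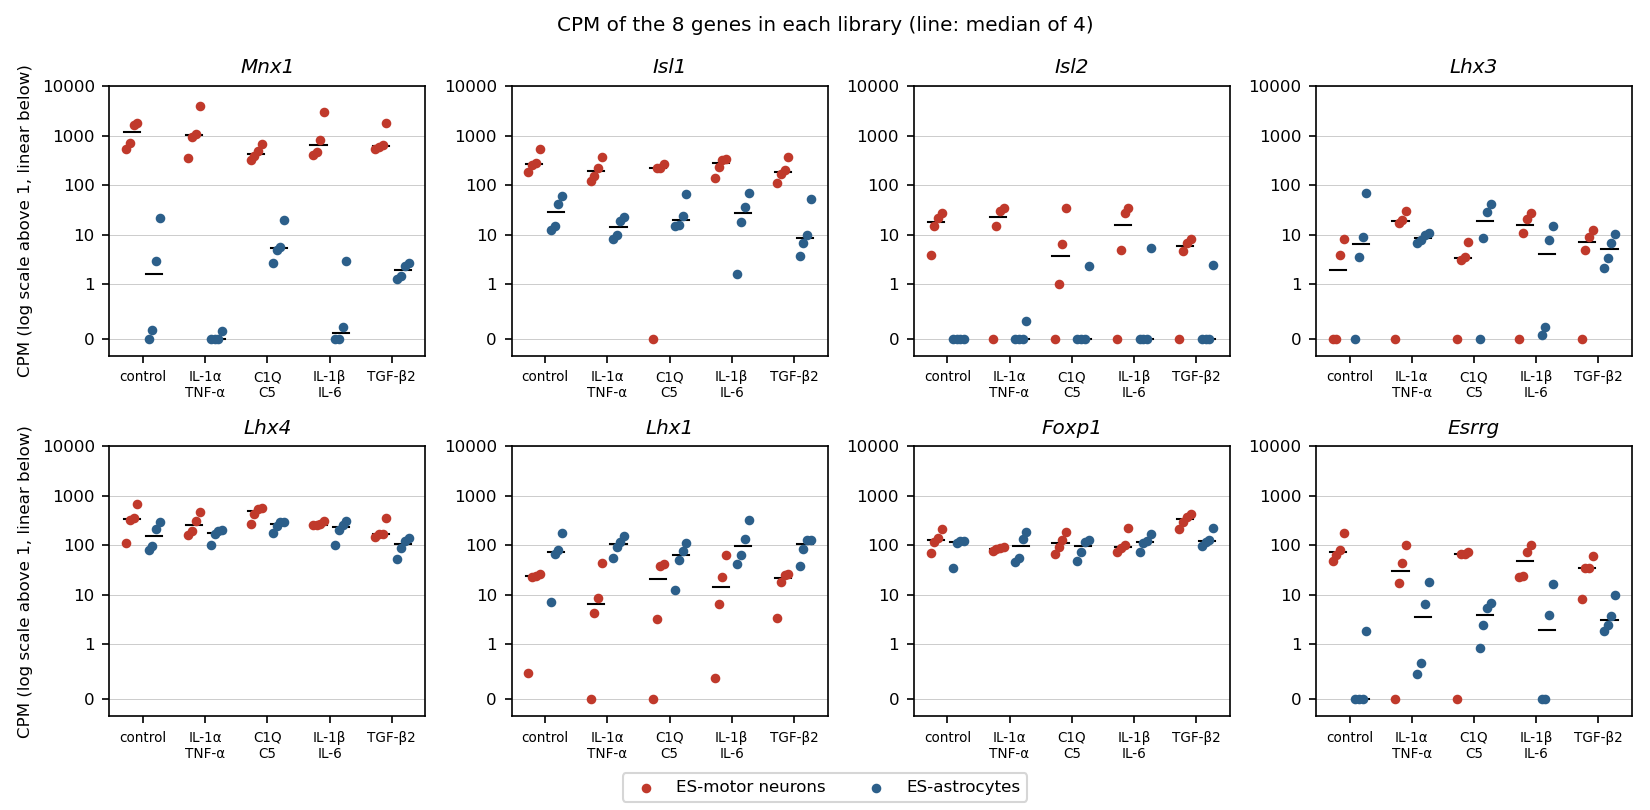
CPM of each of the 8 genes (vertical axis, logarithmic above 1 and linear below) in every library by treatment (horizontal axis), with ES-motor neurons in red, ES-astrocytes in blue and a line at the median of 4 libraries. *Mnx1* separates all 20 ES-motor neuron libraries (at least 319.9 CPM) from all ES-astrocyte libraries (at most 21.3 CPM), *Lhx1* lies higher in ES-astrocytes (medians 81.5 against 20.4 CPM), and *Lhx4* and *Foxp1* overlap.

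*Isl1* (ENSMUSG00000042258, chr13:116298281-116309689, minus strand), the LIM homeodomain factor that starts the motor neuron programme, ran from 0 through 223 to 533 CPM in ES-motor neurons and from 1.62 through 16.7 to 67.7 CPM in ES-astrocytes. In 19 of 20 ES-motor neuron libraries it lay above every ES-astrocyte library, and the exception, C1Q and C5 A, held 6557 counts and none of *Isl1*. Every ES-astrocyte library had *Isl1* counts, 2969 in all against 12991. Over the treatments the log2 fold change was 3.30 ± 0.33 (edgeR, adjusted p = 4.06e-11). Among the stimulated ES-motor neurons the libraries A to D held 118, 153, 376 and 225 CPM with IL-1α and TNF-α, 0, 221, 262 and 216 CPM with C1Q and C5, 140.5, 328, 331 and 227 CPM with IL-1β and IL-6, and 373, 201, 170.0 and 109 CPM with TGF-β2, against 533, 186, 254 and 279.8 CPM in the controls. The means ran from the control (313 CPM) through IL-1β and IL-6 (257), IL-1α and TNF-α (218) and TGF-β2 (213) to C1Q and C5 (175), and no neighbours in that order were separate. Without library A the control mean was 240.0 CPM, under that with IL-1β and IL-6.

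*Isl2* (ENSMUSG00000032318, chr9:55538672-55546180, plus strand), the paralog of *Isl1* that comes on once motor neurons have left the cell cycle, had counts in 16 of the ES-motor neuron libraries, from 0 through 7.57 to 34.7 CPM, and in 4 of 20 ES-astrocyte libraries, from 0 through 0 to 5.25 CPM. Its 66 ES-astrocyte counts came from B with IL-1α and TNF-α (0.331 CPM), B with C1Q and C5 (2.31 CPM), B with IL-1β and IL-6 (5.25 CPM) and A with TGF-β2 (2.46 CPM). In 12 ES-motor neuron libraries the level was above all ES-astrocyte libraries. The log2 fold change over the treatments was 5.02 ± 0.99 (edgeR, adjusted p = 1.23e-04), and it was 5.75 without ES-astrocyte library B with C1Q and C5, 6.08 without B with IL-1β and IL-6, and between these values without A with TGF-β2. On single plates, chosen after seeing the data, it was 8.48 on plate 1 and 3.58 on plate 2. Mean levels in ES-motor neurons ran from 19.8 CPM with IL-1α and TNF-α through 16.9 (control), 16.5 (IL-1β and IL-6) and 10.4 (C1Q and C5) to 4.95 CPM (TGF-β2), all neighbours overlapping. Without library B the mean with C1Q and C5 was 2.46 CPM, the lowest of the 5, and without library A that with IL-1β and IL-6 was 10.6 CPM. Per kilobase of exon, *Isl1* was the higher of this pair in 19 of 20 ES-motor neuron libraries, at medians of 56.3 against 3.45 CPM per kilobase. The antisense gene *Gm17226* overlaps *Isl2* and had 15 counts in ES-motor neurons, and because the strand setting of the counting is not given in the sources used here, reads of such partners cannot be told apart.

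*Lhx3* and *Lhx4*, paralogs that act early in motor neurons of the medial column, behaved unlike each other in amount. *Lhx3* (ENSMUSG00000026934, chr2:26200212-26208289, minus strand) ran from 0 through 5.99 to 29.6 CPM in ES-motor neurons (detected in 14 of 20) and from 0 through 7.75 to 67.6 CPM in ES-astrocytes (18 of 20). The ranges of the cell types overlapped, no ES-motor neuron library lay above all ES-astrocyte libraries, and the log2 fold change of −0.40 ± 0.78 (edgeR, adjusted p = 0.818) changed sign in some of the alternative settings. Its highest levels were in ES-astrocyte libraries, control A at 67.6 CPM and C1Q and C5 D at 42.4 CPM. An antisense gene, *Gm27196*, had 38 counts in ES-motor neurons and 121 in ES-astrocytes beside the 661 and 1462 of *Lhx3*. In ES-motor neurons the mean was 16.6 CPM with IL-1α and TNF-α, 14.6 with IL-1β and IL-6, 6.59 with TGF-β2, 3.45 with C1Q and C5 and 3.03 CPM in the controls, and neighbouring groups overlapped. Without library B the mean was 1.28 CPM in the controls and 2.20 CPM with C1Q and C5.

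*Lhx4* (ENSMUSG00000026468, chr1:155698031-155751684, minus strand) was present in all 40 libraries, from 112 through 291 to 679 CPM in ES-motor neurons and from 52.1 through 184 to 306 CPM in ES-astrocytes. In 10 of 20 ES-motor neuron libraries it was above all ES-astrocyte libraries. The log2 fold change of 0.84 ± 0.19 (edgeR, adjusted p = 8.19e-04) passed the limit on p but not the limit of 1 on the size of the change, and it was 1.08 (edgeR, adjusted p = 7.96e-04) without the 9 shallow libraries. On plate 1 alone, an alternative chosen after seeing the data, it was 1.05 with an adjusted p of 0.0833 (edgeR), and it was not called. In the ES-motor neurons the mean went from 456 CPM with C1Q and C5 over 366 (control), 286 (IL-1α and TNF-α) and 274 (IL-1β and IL-6) to 210.2 CPM (TGF-β2). In ES-astrocytes C1Q and C5 also had the highest mean (254 CPM) and TGF-β2 the lowest (101 CPM). Neighbouring groups overlapped in both orders, and without library D the mean of the ES-motor neuron controls was 262 CPM. Per kilobase of exon, *Lhx4* exceeded *Lhx3* in 20 of 20 ES-motor neuron libraries (medians 50.7 against 1.97 CPM per kilobase) and in 19 of 20 ES-astrocyte libraries (32.1 against 2.54).

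*Lhx1* (ENSMUSG00000018698, chr11:84518284-84525535, minus strand), which guides the axons of lateral motor neurons and also marks several interneuron classes, was higher in ES-astrocytes. It ran from 0 through 20.4 to 64.6 CPM in ES-motor neurons and from 7.18 through 81.5 to 331 CPM in ES-astrocytes. No ES-motor neuron library reached the ES-astrocyte median, and 8 lay below all 20 ES-astrocyte libraries. Over the treatments the log2 fold change was −2.21 ± 0.44 (edgeR, adjusted p = 1.69e-04). Libraries A to D of the ES-astrocytes held 7.18, 68.2, 181 and 80.4 CPM as controls, 92.4, 56.6, 152 and 118 CPM with IL-1α and TNF-α, 114, 50.1, 77.6 and 12.8 CPM with C1Q and C5, 133, 63.8, 331 and 41.7 CPM with IL-1β and IL-6, and 37.9, 82.5, 129 and 128 CPM with TGF-β2. By mean, IL-1β and IL-6 came first (142 CPM), then IL-1α and TNF-α (105), TGF-β2 (94.5), control (84.1) and C1Q and C5 (63.7), with overlap at each step. Library C carried much of this ranking, since without it the mean was 79.6 CPM with IL-1β and IL-6 and 51.9 CPM in the controls. The 2 lowest ES-astrocyte libraries, control A and C1Q and C5 D, were those with most *Mnx1* and *Lhx3*.

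*Foxp1* (ENSMUSG00000030067, chr6:98925338-99522721, minus strand), the forkhead factor of the limb and preganglionic columns, was similar in range between the cell types, from 67.6 through 109 to 429 CPM in ES-motor neurons and from 34.2 through 117 to 226 CPM in ES-astrocytes. The log2 fold change over the treatments was 0.39 ± 0.21 (edgeR, adjusted p = 0.221) and was not called. With TGF-β2 the ES-motor neuron libraries A to D held 215, 293, 429 and 379 CPM, against 214, 69.5, 115 and 138 CPM in the controls. On the TMM scale each TGF-β2 library was above the 4 controls, the shallow library A with 52 counts only just, and 3 of them were above all ES-astrocyte libraries. The means came in the order TGF-β2 (329 CPM), control (134), IL-1β and IL-6 (121), C1Q and C5 (118) and IL-1α and TNF-α (84.6). That TGF-β2 and the control were separate depends on the scaling, since on CPM of raw totals TGF-β2 A (183.6) lay under control A (184.3) and the exact permutation p was 0.0571. For every other member the neighbouring treatments in such an order overlapped. *Gm20696*, a gene on the same strand inside *Foxp1*, had 92 and 430 counts in ES-motor neurons and ES-astrocytes beside 9628 and 12883 of *Foxp1*, and reads of the overlap may have been assigned to either.

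*Esrrg* (ENSMUSG00000026610, chr1:187608791-188214885, plus strand), the nuclear receptor of gamma motor neurons, ran from 0 through 55.0 to 181 CPM in ES-motor neurons (detected in 18 of 20) and from 0 through 2.16 to 18.1 CPM in ES-astrocytes (15 of 20). In 16 ES-motor neuron libraries, among them all 11 that were not shallow, it was above every ES-astrocyte library. The log2 fold change was 3.90 ± 0.62 (edgeR, adjusted p = 2.76e-06). Control libraries A to D held 48.9, 64.6, 181 and 81.7 CPM in ES-motor neurons and 0, 0, 0 and 1.89 CPM in ES-astrocytes. Every control ES-motor neuron library was above every control ES-astrocyte library, and a single ES-astrocyte control had any count. Of the stimulated ES-astrocytes all 4 libraries had counts with IL-1α and TNF-α, C1Q and C5, and TGF-β2, and 2 with IL-1β and IL-6, at means of 6.44, 3.90, 4.53 and 5.11 CPM against 0.471 CPM in the controls (exact permutation p = 0.171, 0.0571, 0.0571 and 0.429, and 0.0286 for TGF-β2 on raw totals). Single libraries carried much of these means. The mean was 2.55 CPM with IL-1α and TNF-α without library A, and 0 in the controls without library D. Without library C it was 1.28 CPM with IL-1β and IL-6 and 2.66 CPM with TGF-β2. The mean in ES-motor neurons was highest in the control (94.0 CPM), followed by IL-1β and IL-6 (55.2), C1Q and C5 (51.1), IL-1α and TNF-α (40.2) and TGF-β2 (35.1), with overlapping neighbours, and without library B the mean with IL-1α and TNF-α was 20.5 CPM, under that with TGF-β2. Antisense genes within *Esrrg*, such as *9330162B11Rik* with 0 and 18 counts in ES-motor neurons and ES-astrocytes, were nearly silent.

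A gene was called where edgeR's adjusted p was at most 0.05 and the log2 fold change was beyond 1 in either direction. Over the 5 treatments 5 of the 8 members were called, *Mnx1*, *Isl1*, *Isl2* and *Esrrg* as higher in ES-motor neurons and *Lhx1* as higher in ES-astrocytes, where 14.9% of the 13227 genes tested were called, 511 higher and 1461 lower. The members were chosen as motor neuron genes with earlier results known, so their share is a description. The median log2 fold change of the 8 was 2.07, against −0.21 over all genes tested. Each of the 5 calls was kept when any 1 of the 40 libraries was left out, on plate 1 alone and on plate 2 alone. Without either pair of libraries that stood apart the 5 were called as well, among 2270 genes without the ES-motor neuron pair and 2020 without the ES-astrocyte pair, and like the fits of single plates these were chosen after seeing the data. The p-values measure the spread between the cultures of 1 line.

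Within the control treatment 4 members were called, *Mnx1*, *Isl1*, *Isl2* and *Esrrg*, where 2.24% of 10199 genes were. With the letters A to D as a block 41 genes were called, and *Mnx1* kept its call while *Isl1*, *Isl2* and *Esrrg* lost theirs. The sample sheet gives both cell types of a treatment and letter the same identifier, apart from a final letter. The main calls within each treatment leave this pairing out. Over the 6 alternative settings, this block among them, the log2 fold change was no lower than 3.29 for *Isl1* and 7.17 for *Esrrg*. For *Isl2*, the ES-motor neuron libraries held 27.2, 14.6, 3.85 and 22.0 CPM against 0 in all 4 ES-astrocyte libraries, a level at least 152-fold higher when 3 counts are set for the group at 0 (edgeR, adjusted p = 0.0337). *Esrrg* differed by 7.63 ± 1.42 on the log2 scale (edgeR, adjusted p = 0.0179) and, with the other 3 ES-astrocyte libraries at 0, was at least 514-fold higher without ES-astrocyte library D, while *Mnx1* differed by 7.50 ± 1.39 (edgeR, adjusted p = 0.0176) and by 9.79 without ES-astrocyte library A. *Lhx1* (−2.16 ± 1.03), *Lhx3* (−2.68 ± 1.96), *Lhx4* (1.12 ± 0.57) and *Foxp1* (0.49 ± 0.49) were not called, and the value of *Lhx3* was −0.35 without ES-astrocyte library A and −5.04 without ES-motor neuron library B, which left 1 count in ES-motor neurons. In all 4 called genes the libraries of the cell types did not overlap, yet the calls lay close to the limit. Overlap was looked at for the members alone, so the share of all genes without overlap is not given and this is a description. For *Isl2* the adjusted p of edgeR was 0.0316 without ES-astrocyte A and above the limit in the other 7 fits without 1 library, at 0.0617, 0.0657 and 0.0550 without ES-astrocyte B, C or D and 0.121, 0.0993, 0.0840 and 0.116 without ES-motor neuron A, B, C or D. For *Esrrg* it was 0.0508 without ES-astrocyte C and 0.0514, 0.105 and 0.0553 without ES-motor neuron B, C or D in edgeR. For *Mnx1* it was 0.0525 without ES-astrocyte B and 0.0514 or 0.0573 without ES-motor neuron B or C, and for *Isl1* 0.0548 or 0.0559 without ES-motor neuron A or C (edgeR). Over the fits without 1 library the log2 fold change was 7.12 to 9.79 for *Mnx1*, 3.03 to 3.88 for *Isl1* and at least 7.16 for *Esrrg*. In the exact two-sided permutation test of CPM, the smallest p that 4 against 4 libraries allow, 0.0286, was reached by *Mnx1*, *Isl1*, *Isl2* and *Esrrg*. Groups without overlap always reach it, so this p restates the lack of overlap and adds no support.

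With IL-1α and TNF-α 2 members were called, *Mnx1* and *Isl1*, where 2.82% of 8249 genes were. *Mnx1* had 1473 counts in ES-motor neurons and 2 in ES-astrocytes, a ratio of scaled levels of 14241 with a 95% Clopper-Pearson interval from 3935 to 117706 (edgeR, adjusted p = 4.48e-05). *Isl1* differed by 3.93 ± 0.52 (edgeR, adjusted p = 7.93e-04), with all 4 ES-motor neuron libraries above the ES-astrocyte libraries. *Lhx1* did not pass, at −2.70 ± 0.78 (edgeR, adjusted p = 0.0978), although the 4 ES-motor neuron libraries at 0, 4.32, 43.6 and 8.67 CPM lay below the 4 ES-astrocyte libraries (exact permutation p = 0.0286), and it was called without ES-motor neuron library C, at −4.65 (edgeR, adjusted p = 0.0136). Without ES-motor neuron library A, the highest in *Mnx1*, the fitted log2 fold change of *Mnx1* went from 13.64 to 12.58. *Isl2*, at 29.6, 15.1, 0 and 34.7 CPM in ES-motor neurons and 1 count in ES-astrocytes, was removed by the filter on low counts. *Esrrg* (2.75 ± 1.17), *Lhx3* (0.99 ± 1.11), *Lhx4* (0.87 ± 0.41) and *Foxp1* (−0.25 ± 0.49) were not called. Over the fits without 1 library *Esrrg* ran from 1.82 to 4.11, the latter without ES-astrocyte library A. All 4 ES-motor neuron libraries of this treatment were shallow, with totals from 112775 to 445874.

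With C1Q and C5 2 members were again called, where 3.15% of 8201 genes were: *Mnx1* by 5.58 ± 0.61 (edgeR, adjusted p = 4.21e-05) and *Isl1* by 2.78 ± 0.60 (edgeR, adjusted p = 0.0117). *Mnx1* differed by 6.46 without ES-astrocyte library D. *Isl1*, higher in 3 of 4 ES-motor neuron libraries and at 0 in the shallow library A, differed by 3.46 without ES-astrocyte library A, and its call was lost without ES-motor neuron library C, at 2.60 (edgeR, adjusted p = 0.0530). *Esrrg* held 0, 71.8, 66.6 and 66.0 CPM in ES-motor neurons and 6.75, 0.941, 5.45 and 2.47 CPM in ES-astrocytes. It was removed by the filter on low counts, but was tested in 7 fits without 1 library and called in 6 of them. These were without ES-astrocyte A, B, C or D, at 4.48, 3.61, 4.30 and 3.87, or without ES-motor neuron A or C, at 4.17 and 3.94. In the remaining fit it was not called (edgeR, adjusted p = 0.0593). With 1 library left out the filter asked for fewer libraries, and *Esrrg* passed it mainly through its high ES-motor neuron levels. The calls in these 6 fits are therefore a description and give no support. The share of all genes called in them is not given. With no library left out the exact permutation p of *Esrrg* was 0.143. *Isl2* was not tested either, at 0, 34.3, 1.03 and 6.35 CPM in ES-motor neurons, and *Lhx1* (−1.26 ± 0.81), *Lhx3* (−2.17 ± 1.38), *Lhx4* (0.89 ± 0.39) and *Foxp1* (0.47 ± 0.46) were not called.

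With IL-1β and IL-6 1 member was called, *Mnx1*, where 2.12% of 9520 genes were. It differed by 11.43 ± 1.30 (edgeR, adjusted p = 1.85e-04), a value that rests on 7 ES-astrocyte counts and went to 14.12 without ES-astrocyte D, which leaves 1 of them, to 10.59 without ES-astrocyte C and to 10.48 without ES-motor neuron A. *Isl1* held 140.5, 328, 331 and 227 CPM in ES-motor neurons and 67.7, 1.62, 36.6 and 17.7 CPM in ES-astrocytes, with no overlap, and its log2 fold change of 3.09 ± 0.77 missed the limit (edgeR, adjusted p = 0.0585). Without ES-astrocyte A or B it was called, at 3.82 and 2.69 (edgeR, adjusted p = 0.0222 and 0.0265). *Esrrg*, at 23.9, 22.6, 74.0 and 100.4 against 0, 3.84, 16.6 and 0 CPM, had a log2 fold change of 3.49 ± 1.36 (edgeR, adjusted p = 0.344; exact permutation p = 0.0286), and 5.28 without ES-astrocyte C. *Isl2* (3.70 ± 1.97), *Lhx1* (−2.39 ± 1.06), *Lhx3* (1.40 ± 1.60), *Lhx4* (0.36 ± 0.39) and *Foxp1* (0.09 ± 0.45) were not called. Without ES-astrocyte B, the library with its ES-astrocyte counts, *Isl2* was at least 173-fold higher in ES-motor neurons yet not called, with 538 of its 567 ES-motor neuron counts in library A, which stood apart. *Lhx1* was at −5.84 without ES-motor neuron C, and *Lhx3* at 2.46 without ES-astrocyte D.

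With TGF-β2 2 members were called, where 3.62% of 9959 genes were, *Mnx1* by 8.91 ± 0.60 (edgeR, adjusted p = 4.45e-06) and *Isl1* by 3.58 ± 0.76 (edgeR, adjusted p = 0.0148), both with 4 of 4 ES-motor neuron libraries above the ES-astrocyte libraries. *Mnx1* differed by 8.24 without ES-motor neuron B. *Isl1* differed by 5.00 without ES-astrocyte D, and its call was lost without the shallow ES-motor neuron library A, at 3.17 (edgeR, adjusted p = 0.0807). Short of the limit were *Foxp1* at 1.27 ± 0.36 (edgeR, adjusted p = 0.0748), *Lhx1* at −2.33 ± 0.64 (edgeR, adjusted p = 0.0649), *Esrrg* at 3.05 ± 0.90 (edgeR, adjusted p = 0.0881) and *Lhx4* at 1.13 ± 0.42 (edgeR, adjusted p = 0.216). *Foxp1* was called without ES-astrocyte D, at 1.59, and *Lhx1* without ES-astrocyte A, at −2.64 (edgeR, adjusted p = 0.0262 and 0.0402). The *Lhx4* libraries did not overlap, at 166, 150.3, 168 and 357 CPM against 90.4, 119.8, 52.1 and 140.2 CPM (exact permutation p = 0.0286). *Isl2* (2.94 ± 1.84) and *Lhx3* (0.19 ± 1.35) were not called, and *Isl2* was at least 25.5-fold higher without ES-astrocyte A, which held its ES-astrocyte counts.

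**Figure D2:**
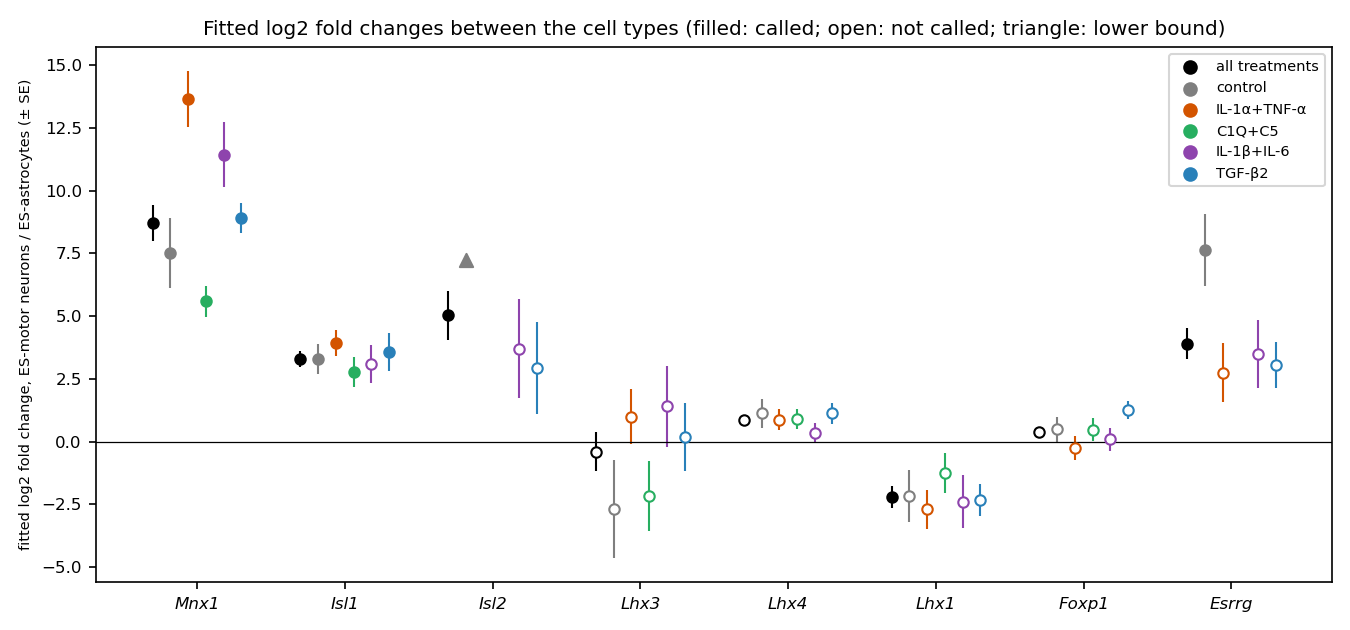
Fitted log2 fold changes of ES-motor neurons over ES-astrocytes (vertical axis, bars show the standard error) for each gene (horizontal axis), over all treatments and within each treatment by colour, filled where called and open where not. *Mnx1* lies between 5.58 and 13.64, the latter from 2 ES-astrocyte counts, *Isl1* between 2.78 and 3.93, and *Lhx1* below 0 throughout, while the triangle at 7.25 for control *Isl2* is a lower bound.

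Whether stimulation of the ES-astrocytes moved these genes was asked within each cell type, with the 4 comparisons of a cell type sharing its 4 controls. In ES-motor neurons edgeR called 0 members in each. With IL-1α and TNF-α 0% of 4479 genes were called (143 at an unadjusted p under 0.05, and 1 called by DESeq2), with C1Q and C5 0% of 7348 (322, and 0 by DESeq2), and with IL-1β and IL-6 0% of 8327 (98, and 1 by DESeq2). With TGF-β2 0.0126% of 7947 genes were called (221, and 19 by DESeq2), that is 1 gene, *Hoxa5*, named after its values were seen. In ES-astrocytes edgeR called 0% of 10444 genes with IL-1α and TNF-α (93 unadjusted, 21 by DESeq2), 0% of 10865 with C1Q and C5 (106 and 37), 0% of 10240 with IL-1β and IL-6 (119 and 56) and 0% of 10794 with TGF-β2 (136 and 58). No member was among the genes that DESeq2 called.

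Among the members the smallest p were those of *Foxp1* and *Mnx1* in ES-motor neurons. *Foxp1* between TGF-β2 and the control gave a log2 fold change of 1.29 ± 0.38 (unadjusted p = 0.00281; edgeR, adjusted p = 0.963), higher in 4 of 4 libraries, with an exact permutation p of 0.0286 on TMM scaled CPM and 0.0571 on CPM of raw totals. Against the other 2 stimuli of its own plate, a comparison chosen after seeing the data, it was 1.37 (edgeR, adjusted p = 0.410). In ES-astrocytes *Foxp1* held 98.4, 116, 131 and 226 CPM with TGF-β2 and 34.2, 119.7, 113 and 120.2 CPM in the controls, a log2 fold change of 0.60 ± 0.47 that was not called, with an exact permutation p of 0.371 on TMM scaled CPM and 0.0286 on CPM of raw totals. For *Mnx1* the value between C1Q and C5 and the control in ES-motor neurons was −1.44 ± 0.46 (unadjusted p = 0.00395; edgeR, adjusted p = 0.997), with 1 library of the stimulated group, A at 676 CPM, above the lowest control and 3 below it, and with an exact permutation p of 0.0571 on TMM scaled CPM and 0.229 on CPM of raw totals. Its values for the other stimuli were 0.75 ± 0.64 (IL-1α and TNF-α), −0.02 ± 0.55 (IL-1β and IL-6) and −0.40 ± 0.43 (TGF-β2). Without library A of the stimulated group, which stood apart, the *Mnx1* values were −0.43 for IL-1α and TNF-α, with the direction changed, and −0.99 for IL-1β and IL-6, and neither was called.

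*Esrrg* in ES-motor neurons had a value of −1.37 ± 0.55 between TGF-β2 and the control (unadjusted p = 0.0215; edgeR, adjusted p = 0.999), with 8.29, 35.7, 61.1 and 35.2 CPM. The groups overlapped, since TGF-β2 C was above control A. *Lhx4* gave −0.80 ± 0.43 for TGF-β2 in ES-motor neurons and −0.72 ± 0.50 in ES-astrocytes, and *Isl2* −1.93 ± 1.10 in ES-motor neurons, none of them called. *Isl1* values in ES-motor neurons were −0.33 ± 0.44, −0.55 ± 0.43, −0.27 ± 0.43 and −0.58 ± 0.41 for IL-1α and TNF-α, C1Q and C5, IL-1β and IL-6, and TGF-β2, each under 2 SE. *Lhx1* in ES-astrocytes gave 0.37 ± 0.73, −0.38 ± 0.84, 0.76 ± 0.85 and 0.20 ± 0.77 in the same order. The filter on low counts left *Esrrg* and *Isl2* untested in the ES-astrocyte comparisons, *Mnx1* in those with IL-1α and TNF-α and with IL-1β and IL-6, *Lhx3* in 3 of the 4 in ES-motor neurons, and *Isl2* and *Lhx1* in that with IL-1α and TNF-α. For these the absence of a call is no result.

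Whether the difference between the cell types itself varied with treatment was tested by an interaction over all 40 libraries. edgeR called 0 members and 0% of 13227 genes, with 808 at an unadjusted p under 0.05, and DESeq2 called 1 gene, not a member. *Mnx1* had the smallest p of the members, 5.13e-05 (edgeR, adjusted p = 0.196), and over the 11 alternative settings its adjusted p ran from 0.191 to 1. Its cell type differences, 5.58 with C1Q and C5 at one end and 13.64 with IL-1α and TNF-α at the other, rest on 206 and 2 ES-astrocyte counts. *Esrrg* followed with a p of 0.0526 and *Isl2* with 0.0722 (edgeR, adjusted p = 0.825 and 0.889). A call in one treatment and none in another is therefore not shown to be a difference between treatments for any of the 8.

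Genes that work with or beside these factors were read from lists, each compared over the 5 treatments with the −0.21 of all genes tested. Of 20 LIM complex cofactors and partner factors 19 were tested, 10 were lower in ES-motor neurons and none was higher, with a median of −1.72. The lower genes included the proneural factor *Neurod4* (−6.35 ± 0.60), the Ebf factors *Ebf2* (−2.72 ± 0.28) and *Ebf1* (−2.04 ± 0.23) and *Onecut2* (−2.31 ± 0.26), while *Ssbp3*, which stabilises *Ldb1* complexes and was the most abundant, was not called (0.21 ± 0.18). The sum ran from 533 through a median of 882 to 1387 CPM in ES-motor neurons and from 831 through a median of 1709.6 to 2924 CPM in ES-astrocytes. Of 11 paralogs of the members 5 were tested, and 1 was called in each direction: *Lmx1a*, a LIM factor of the roof plate and dopaminergic lineage, was higher in ES-motor neurons (3.73 ± 0.99), and *Lhx5*, the partner of *Lhx1* in interneurons, had no count in ES-motor neurons and was at least 251-fold lower. *Foxp4* (−3.96 ± 1.55) and *Esrra* (−1.54 ± 0.73) were not called. Their median was −1.54, *Foxp2* was the most abundant, and the sum ran from 0 through a median of 14.9 to 59.0 CPM in ES-motor neurons and from 9.04 through a median of 32.2 to 49.5 CPM in ES-astrocytes.

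Of 10 motor neuron progenitor factors 8 were tested, and 5 were lower and none higher in ES-motor neurons, with a median of −2.08. *Sox1*, a gene of dividing neural progenitors, differed by −8.02 ± 0.74, the ventral factors *Nkx6-1* (the most abundant) by −1.89 ± 0.21 and *Pax6* by −3.32 ± 0.72, and *Nkx2-2*, with no count in ES-motor neurons, was at least 134-fold lower. The summed level ran from 0 through a median of 59.4 to 169 CPM in ES-motor neurons and from 108 through a median of 244 to 596 CPM in ES-astrocytes. Interneuron factors went the same way: of 22 genes 11 were tested and 10 were lower, none higher, with a median of −5.10. *Gata3*, which sets a class of inhibitory interneurons, differed by −9.49 ± 0.52, the GABA enzyme gene *Gad2* by −5.76 ± 0.82, *Vsx1* by −6.82 ± 1.08, and the vesicular glutamate transporter gene *Slc17a6* was at least 271-fold lower, while *Sp8*, the most abundant, was not called (−0.86 ± 0.35). *Evx1*, *Evx2* and *Tlx3* had no count in any library. The sum ran from 47.4 through a median of 813 to 2175 CPM in ES-motor neurons and from 126 through a median of 1697 to 3168 CPM in ES-astrocytes.

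Of 15 motor column and pool factors 8 were tested, 4 were lower in ES-motor neurons and 1 was higher, with a median of −2.28. The higher gene was *Nr2f2*, an orphan nuclear receptor and the most abundant of the list (3.61 ± 0.33), at 367 through 3279.7 to 5869 CPM in ES-motor neurons against 11.6 through 263 to 512 CPM in ES-astrocytes. *Gata3* was also in this list, with *Gata2* (−7.29 ± 0.75) among the lower genes. The sum ran from 385 through a median of 3285 to 5876 CPM in ES-motor neurons and from 92.4 through a median of 467 to 815 CPM in ES-astrocytes. All 4 testable cholinergic genes of 5 were higher in ES-motor neurons, with a median of 5.82: the choline transporter gene *Slc5a7* (7.92 ± 0.77), *Slc10a4* (5.57 ± 0.65, the most abundant), the synthetic enzyme gene *Chat* (6.07 ± 1.01) and the vesicular transporter gene *Slc18a3* (4.97 ± 0.88). Their sum ran from 127 through a median of 251 to 1072 CPM in ES-motor neurons and from 0 through a median of 6.29 to 43.2 CPM in ES-astrocytes. Of 10 gamma and alpha motor neuron genes 7 were tested, 1 was higher, *Chodl* of fast motor neurons (3.11 ± 1.13), and 2 were lower, *Spp1* (−5.64 ± 1.03) and *Wnt7a*, whose 1 count against 236 gave a ratio of 0.00765 (95% interval 1.93e-04 to 0.0431). *Nefh* (1.86 ± 0.99) and the most abundant, *Gfra1* (0.14 ± 0.31), were not called, *Htr1d* was at 0 in all libraries, the median was 0.14, and the sum ran from 11.3 through a median of 82.1 to 139 CPM in ES-motor neurons and from 20.2 through a median of 106 to 187 CPM in ES-astrocytes. The medians of these 7 lists were the same with genes at 0 in ES-motor neurons set to their bounds, and no gene of any list was called in a stimulus comparison.

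The genes whose log2 CPM was most like that of each member were taken by Pearson's r over all 40 libraries, which share the split by cell type and the range of depth, with Spearman's rho beside most values. For *Mnx1* they were *Gm42537* (r = 0.911, rho = 0.791), *Slc10a4* (r = 0.907) and *Slit2* (0.906, 0.750), for *Isl1* *Elavl2* (r = 0.861, rho = 0.877), *Rai2* (0.856, 0.813) and *Samd5* (0.834, 0.881) and for *Isl2* *Ston2* (r = 0.763, rho = 0.705), *Gm49749* (0.758, 0.721) and *A730046J19Rik* (0.748, 0.751). The nearest to *Esrrg* were *Spp2* (r = 0.826, rho = 0.820), *Btbd11* (0.819, 0.810) and *Slc5a7* (0.818, 0.815). *Slc10a4* and *Slc5a7* belong to the cholinergic list, and *Slit2* encodes an axon guidance ligand. *Lhx1* was nearest to *Zfp367* (r = 0.835, rho = 0.841), *H3f3b* (rho = 0.863) and *Nav2* (0.824, 0.897). The genes nearest to *Lhx3* were *Hdlbp* (r = 0.671, rho = 0.668), *Atp6v0e2* (0.669, 0.512) and *Pced1a* (0.627, 0.670), to *Lhx4* *Atpif1* (r = 0.723, rho = 0.679), *Gm12999* (0.714, 0.653) and *Dynlt1a* (0.685, 0.723) and to *Foxp1* *Celf4* (r = 0.745, rho = 0.745), *Auts2* (0.728, 0.695) and *Rsl24d1* (0.700, 0.663), all at lower r. Within the 11 ES-motor neuron libraries that were not shallow, where the cell type no longer sets the order, other genes came first. There the nearest genes were *Uqcrc1* (r = 0.960, rho = 0.973), *Tspan13* (0.957, 0.891) and *Elovl1* (0.956, 0.940) for *Mnx1*, *Rheb* (r = 0.909, rho = 0.827), *Fam76b* (0.905, 0.927) and *Etfrf1* (0.881, 0.845) for *Isl1* and *Gm38228* (r = 0.895, rho = 0.936), *Zbtb20* (0.870, 0.855) and *Usp3* (0.861, 0.773) for *Foxp1*. The first gene was *Txlna* (r = 0.923) for *Isl2*, *Ube2v2* (r = 0.876) for *Lhx1*, *Lbh* (r = 0.899) for *Lhx3*, *Cox7c* (r = 0.924) for *Lhx4* and *Upf1* (r = 0.897) for *Esrrg*. Among these 11 libraries depth still ran from 1146186 to 19717324 counts. The deepest, control B, IL-1β and IL-6 A and TGF-β2 B, also held the most *Mnx1*. *Elovl1* and *Pced1a* were near the floor in ES-motor neurons, at medians of 0.399 and 0 CPM. The part of depth in these likenesses was not tested. All of them are descriptions over libraries and carry no p.

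Because 4 members with a cell type call, *Mnx1*, *Isl1*, *Isl2* and *Lhx1*, have a single RefSeq window each, their promoters are shown, 300 bases around the start, as given by RefSeq on GRCm38.p6. They lie at chr5:29478421-29478720 on the minus strand, chr13:116309639-116309938 on the minus strand, chr9:55540899-55541198 on the plus strand and chr11:84525485-84525784 on the minus strand. The RefSeq start of *Isl2* lies inside the GENCODE bounds of the gene and so differs from the GENCODE start, where other sequence would be shown. The GC content of the 4 windows was 66.3%, 69.0%, 67.3% and 65.7%, with 26, 37, 23 and 31 CG steps, where the median of all 32851 promoter windows was 52.7% and 7 CG. Capitals mark matches on either strand to TAATTG, a core of the kind homeodomains bind, and CAGCTG, an E-box of the kind proneural factors bind. TAATTG is in 8.00% of all windows and in 3 of the 14 windows of the 8 members, of *Mnx1* and *Foxp1*, and CAGCTG is in 16.3% of all windows and in those of *Mnx1* and *Isl1*.
Mnx1: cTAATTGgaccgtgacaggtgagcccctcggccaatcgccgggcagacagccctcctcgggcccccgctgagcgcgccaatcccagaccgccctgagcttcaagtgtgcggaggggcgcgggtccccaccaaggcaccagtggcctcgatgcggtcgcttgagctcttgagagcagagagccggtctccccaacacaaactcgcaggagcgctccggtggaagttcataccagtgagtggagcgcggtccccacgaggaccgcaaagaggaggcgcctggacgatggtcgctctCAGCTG
Isl1: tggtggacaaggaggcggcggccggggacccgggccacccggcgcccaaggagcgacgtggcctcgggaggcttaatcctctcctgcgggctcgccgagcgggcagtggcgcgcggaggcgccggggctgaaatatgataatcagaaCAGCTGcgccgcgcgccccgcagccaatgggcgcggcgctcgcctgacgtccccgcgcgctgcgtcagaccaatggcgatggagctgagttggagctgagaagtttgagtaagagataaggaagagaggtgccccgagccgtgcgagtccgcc
Isl2: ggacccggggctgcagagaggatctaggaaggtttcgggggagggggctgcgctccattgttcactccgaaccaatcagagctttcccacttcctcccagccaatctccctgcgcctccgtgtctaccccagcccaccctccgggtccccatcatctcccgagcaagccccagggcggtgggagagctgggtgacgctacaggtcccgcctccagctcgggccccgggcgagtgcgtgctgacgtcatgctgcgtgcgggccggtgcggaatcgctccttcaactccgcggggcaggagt
Lhx1: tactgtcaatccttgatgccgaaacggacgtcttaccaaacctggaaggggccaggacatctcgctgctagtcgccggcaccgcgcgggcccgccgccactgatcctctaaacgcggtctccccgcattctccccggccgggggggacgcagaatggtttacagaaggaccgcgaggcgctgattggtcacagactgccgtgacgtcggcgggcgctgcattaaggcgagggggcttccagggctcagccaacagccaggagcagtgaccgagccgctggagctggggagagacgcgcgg

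Of the other motifs searched on both strands, the homeodomain core TAATTA is in 5.29% of all windows and in 1 of the 14, of *Foxp1*, and the E-box CAGATG in 17.2% and 1, of *Lhx3*. TATAAA is in 13.6% and in 2 of the 14, of *Lhx3* and *Esrrg*, while the forkhead motif GTAAACA (3.65%) and the motif AAGGTCA of estrogen-related receptors (4.72%) are in none of the 14. A match is a description of these letters and not a bound site.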

How the data were processed

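Polyadenylated RNA of 40 sorted samples, 4 per cell type and treatment, was copied with a template switch, cut with Tn5 and sequenced, and the authors mapped the reads with STAR and deposited whole-number counts per Ensembl gene. Build, annotation, counter and strand setting were not given in the sources used here, and the authors tested with DESeq2. Of 55487 genes 55227 were named through GENCODE M21 (GRCm38), and the 260 others held 0.117% of the counts.

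Counts were tested with edgeR 4.0.16 in R 4.3.3 (filterByExpr, TMM, robust glmQLFit, glmQLFTest), with the libraries of each comparison alone in the fit and treatment as a term over the 5 treatments, with calls as defined above. The SE was the size of the log2 fold change over the root of F. Mean CPM of 4 against 4 libraries was compared by an exact two-sided permutation test over the 70 splits. A fold against a group at 0 used 3 counts over the group, and with 1 to 3 counts a 95% Clopper-Pearson interval. The log2 CPM behind the likeness of genes had a prior count of 2. Python 3.11.15, numpy 2.4.6, pandas 2.3.3, scipy 1.17.1 and matplotlib 3.10.9 prepared tables, exact tests and plots.

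The members and the lists were chosen with earlier results of these data known. Lists were paralogs, LIM cofactors and partners, progenitor, motor column and pool, gamma and alpha, cholinergic and interneuron genes, and markers of neurons, astrocytes, dividing cells, fibroblasts, microglia, the oligodendrocyte lineage and pluripotent cells. Of each list the 4 genes of smallest p over the treatments, the most abundant gene and any gene called for a stimulus are named, and for each member the 3 genes of highest r, except that some genes are not shown.

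Alternatives were DESeq2 1.42.0 (independent filtering at 0.1), RLE normalization, no filter on low counts, 1 library left out, no shallow libraries, a replicate block, all 40 samples in 1 fit and, for CPM, raw totals. Each plate alone, the libraries that stood apart left out, and stimuli of plate 2 compared with each other were added after seeing the data. On simulated counts with known changes, DESeq2 called more unchanged genes than edgeR did, and the limit that it had to meet in this check was set after its first run. The simulation gave all genes the same spread, which was not fitted to these libraries. It therefore cannot show how either tool does on them. The main calls are those of edgeR, and calls made by DESeq2 alone are given only as an alternative.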

Additional observations from a re-analysis of the deposited data

Results flagged for a closer look

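In 16 of 79 sets of 4 libraries, a set being 1 gene in 1 cell type and treatment, a single library stood far from the other 3 by Dixon's ratio, its gap to the nearest library divided by the range. With normally distributed values chance gives this in about 1 in 20 sets, but in 6 of the 16 the other 3 libraries were at 0, so the 16 cannot be held against that share. For *Mnx1* the library far above the others was ES-astrocyte A of the controls (ratio 0.86), A with IL-1α and TNF-α (1, from 2 counts) and D with IL-1β and IL-6 (0.923), and among ES-motor neurons A with IL-1β and IL-6 (0.838) and B with TGF-β2 (0.912). For *Isl1* it was ES-astrocyte D with TGF-β2 (0.875). The *Isl2* RNA of ES-astrocytes came from 1 library in each stimulated group, B with IL-1α and TNF-α, B with C1Q and C5, B with IL-1β and IL-6 and A with TGF-β2, each at a ratio of 1 because the other 3 were at 0. *Lhx3* was high in ES-astrocyte control A (0.865), where *Foxp1* was low (0.92). *Lhx4* was high in ES-motor neuron D with TGF-β2 (0.915), and *Lhx1* was low in ES-motor neuron control D (0.862). *Esrrg* was seen in ES-astrocyte control D alone of its group (1) and was at 0 in ES-motor neuron A with C1Q and C5 (0.92), the library with 6557 counts.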

How the results depend on the processing

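Over the 5 treatments *Mnx1*, *Isl1*, *Isl2*, *Esrrg* and *Lhx1* were called in all 10 alternative settings and in all 40 fits without 1 library. Without 1 library the log2 fold change ranged from 8.50 to 9.35 for *Mnx1*, 3.24 to 3.54 for *Isl1*, 4.82 to 6.08 for *Isl2*, 3.75 to 4.30 for *Esrrg* and −2.38 to −2.04 for *Lhx1*. Over the 10 settings it ranged more widely, from 8.31 to 9.54 for *Mnx1*, 3.14 to 3.67 for *Isl1*, 3.58 (plate 2 alone) to 8.48 (plate 1 alone) for *Isl2*, 3.47 to 5.05 for *Esrrg* and −2.55 to −1.97 for *Lhx1*. Without shallow libraries *Lhx4* made 6 members. Within the control, the 4 calls became 0 without shallow libraries and 0 to 4 without 1 library. With IL-1α and TNF-α the 2 calls became 4 by DESeq2 and 4 without the filter (2 to 3 without 1 library), with IL-1β and IL-6 the 1 call became 2 by DESeq2, 2 with all 40 samples in 1 fit and 2 without the filter (1 to 2), and with TGF-β2 the 2 calls became 5 by DESeq2 and 1 without shallow libraries (1 to 3). With C1Q and C5 the count went from 2 to 3 at most. The cause was not tested.

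Counts of all genes called moved more widely. In the order control, IL-1α and TNF-α, C1Q and C5, IL-1β and IL-6, and TGF-β2, DESeq2 called 763, 416, 435, 476 and 865 genes, where edgeR called 228, 233, 258, 202 and 361. With all 40 samples in 1 fit 433 were called in the control and 341 with IL-1β and IL-6, and without the filter 469 with C1Q and C5. Without shallow libraries 81, 65 and 224 were called in the control, with IL-1β and IL-6 and with TGF-β2. Over the treatments the count ran from 1775 to 2833 in fits with all treatments, and was 742 on plate 1 and 1249 on plate 2. It was 1641 without shallow libraries, where no ES-motor neurons with IL-1α and TNF-α were left. In ES-motor neurons with TGF-β2 the 1 call became 19 by DESeq2, 11 without the filter, 3 against the other stimuli of plate 2 and 0 without shallow libraries. Across 113 settings of the stimulus comparisons no member was called, and none was in 11 of the interaction. DESeq2 put the median log2 fold change of its genes over the treatments at 0.81 in place of −0.21, and RLE put it at −0.39 in place of −0.18 with C1Q and C5, where *Mnx1* and *Isl1* kept their calls.

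The letters were checked as a hint of pairing: same-letter deviations from group means correlated at −0.224 to 0.392, in no comparison did every pair exceed 0.1, and 0 to 6 of 8 libraries were most like that of their own letter. Low correlations do not show that libraries are unpaired. The sample sheet gives both cell types of a treatment and letter the same identifier, apart from a final letter. The main fits left this pairing out. With the letters as a block the control had 1 member called, *Mnx1*, in place of 4, and 41 genes in place of 228. IL-1α and TNF-α had 123 genes in place of 233, and IL-1β and IL-6 had 112 in place of 202. TGF-β2 against the control in ES-motor neurons had 4 in place of 1.

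Of 1596 single values over alternatives and fits without 1 library, 26 lost and 15 gained a call and no called value changed sign, while 105 values that were not called in either fit changed sign. On raw totals the CPM difference of *Lhx3* between C1Q and C5 and the control in ES-motor neurons was −0.0865 in place of 0.412 (exact permutation p = 1 in both), and that of *Esrrg* between TGF-β2 and the control in ES-astrocytes was 4.21 (exact permutation p = 0.0286) in place of 4.06 (0.0571). Raw totals also took *Foxp1* between TGF-β2 and the control from an exact permutation p of 0.371 to 0.0286 (ES-astrocytes) and 0.0286 to 0.0571 (ES-motor neurons), and *Lhx4* between the cell types with C1Q and C5 from 0.0857 to 0.0286. All 4 libraries of ES-motor neurons with IL-1α and TNF-α were shallow. Without shallow libraries the cell types could therefore not be compared within that treatment, nor its ES-motor neurons with the control. The fits over the treatments and of the interaction were run without shallow libraries, and so held no ES-motor neurons of that treatment. In ES-motor neurons with IL-1α and TNF-α a gene under 6.48 to 26.0 CPM can be missed.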
